A study of Homo sapiens with 2 samples.

Results

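The genes described here are 29 genes of cholesterol synthesis, sterol sensing, sterol transport and the adjoining fatty acid synthesis, taken by symbol from 33592 genes listed in either of 2 single-cell libraries. All 29 were found in the files. The study compared H1 (WA01) human embryonic stem cells, an established cell line, in 2 genotypes: 1 library of ZNF263 homozygous KO cells, in which the zinc finger gene ZNF263 had been deleted with Cas9, and 1 library of WT cells of the same line. The labels do not say whether the KO cells are a clone, name no second culture of either genotype, and give no treatment. Cells and barcoded beads were paired in microwells, polyadenylated RNA was captured, and UMIs (unique molecular identifiers, each standing for a captured RNA molecule) were counted per gene and barcode.

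Cholesterol is made from acetyl-CoA through mevalonate and isoprenoid units to squalene, which is cyclised to lanosterol and then trimmed and reduced to cholesterol. When the sterol level of the endoplasmic reticulum (ER) membrane falls, SCAP escorts the SREBP transcription factors to the Golgi, where they are cut and released to switch on most of the genes of this pathway, while INSIG proteins hold the SCAP complex back when sterols are plentiful. NPC1 and NPC2 carry cholesterol taken up by the cell out of the lysosome, and growing cells draw on both routes for new membrane.

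Promoter sequences are shown first, because the pathway is known for shared regulatory motifs and because ZNF263 is known to bind purine-rich DNA with GGAGGA repeats. Of the 29 genes, 25 had a promoter in the RefSeq table (GRCh38.p14), and motifs were searched on both strands in the 250 bases before each start, beside the same window of 27305 genes. The SREBF2 window and the MVK stretch are shown because only they held the core of the sterol regulatory element, TCACCCCA (capitals, 133 to 126 bases before the start of SREBF2 and 195 to 188 before that of MVK), and the HMGCS1 and MSMO1 windows for the CCAAT box, which NF-Y binds (capitals, CCAAT or its complement ATTGG, also marked in SREBF2). The INSIG2 stretch is shown for GGAGGAGG (capitals), because INSIG2 had the lowest KO to WT ratio of the measured genes in shallower barcodes. It lies after the first INSIG2 start at 118088471 and before the second at 118088550. The MVK stretch also lies inside its gene, which begins at 109573272, and before a later start, the one used here. Stretches that the GENCODE v29 annotation marks as untranslated exon were left out of the 3 longer windows.
SREBF2, chr22:41832855-41833078, plus strand: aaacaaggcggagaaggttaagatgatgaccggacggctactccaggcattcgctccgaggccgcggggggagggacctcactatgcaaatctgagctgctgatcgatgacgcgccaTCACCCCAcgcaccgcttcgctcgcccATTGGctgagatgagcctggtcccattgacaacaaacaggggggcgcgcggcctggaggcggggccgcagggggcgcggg
MVK, chr12:109573588-109573617, plus strand: gttcgcagttcTCACCCCAgggcgggacac
HMGCS1, chr5:43313513-43313662, minus strand: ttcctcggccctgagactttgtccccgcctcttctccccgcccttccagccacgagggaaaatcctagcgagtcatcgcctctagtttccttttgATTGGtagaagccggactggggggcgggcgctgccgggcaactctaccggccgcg
MSMO1, chr4:165327419-165327622, plus strand: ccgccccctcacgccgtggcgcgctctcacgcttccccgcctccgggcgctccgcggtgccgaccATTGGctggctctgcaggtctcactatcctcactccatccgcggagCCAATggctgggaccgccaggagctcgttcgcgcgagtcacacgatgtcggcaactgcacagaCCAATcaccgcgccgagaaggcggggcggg
INSIG2, chr2:118088471-118088500, plus strand: gttgtgggagtGGAGGAGGaagaggcggta

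The CCAAT box and the GC box were each present for most of the genes. The 25 genes had 33 windows. A gene counted once if any of its windows held the match, and the same rule was used for all genes. CCAAT was in the windows of 19 of 25 genes (76.0%), against 37.0% of all genes and 40.2% of protein-coding genes. MVK and NSDHL held 5 matches each and MSMO1 held 4. Those of NSDHL include an overlapping pair, CCAATTGG, which matches on both strands. The GC box GGGCGG was found for 24 of 25 genes (96.0%), against 46.2% of all and 62.1% of protein-coding genes. TCACCCCA, the core of the sterol regulatory element, was found for 2 of 25 genes (8.0%), against 1.59% of all and 1.74% of protein-coding genes. The E-box CACGTG was found for 3 genes (12%), SC5D, INSIG1 and SCAP, against 7.73% of all genes. GGAGGAGG was found for 5 genes (20%), MVK, TM7SF2, DHCR7, INSIG2 and SREBF1, against 11.2% of all and 14.1% of protein-coding genes. These are matches of letters in a window and were not tested as sites.

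The 2 libraries were sequenced to like depth. KO held 54559376 UMIs over 841049 barcodes and WT 60578040 UMIs over 842407 barcodes. Kept cells, barcodes that reached 1000 UMIs and 500 genes with no more than 20% mitochondrial UMIs, numbered 2286 in KO and 2935 in WT, with medians of 1289.5 and 1328 UMIs. The shallower barcodes, with 250 to under 1000 UMIs, numbered 50551 in KO and 56837 in WT and are other barcodes of the same libraries, not replicates. The libraries listed 834126 barcode sequences in common, of which 20 were kept in both and 4665 were in the shallower set of both. ZNF263 itself held 27 UMIs in KO kept cells, against 83 in WT kept cells (7.57 against 17.8 CPM, a gene's share of all summed UMIs on the usual scale). The log2 ratio of KO over WT was -1.24, with an interval of counting error of -1.92 to -0.60. In the shallower barcodes ZNF263 held 180 UMIs in KO, against 372 in WT, or 8.54 against 15.6 CPM. The log2 ratio there was -0.87 (-1.14 to -0.61). ZNF263 RNA was thus lower in KO but not absent in either set, and the source of the remaining UMIs was not tested. All 14 pluripotent stem cell markers were measured in both libraries, and their summed level was 5697 CPM in KO, against 4725 CPM in WT. Markers of other cell types differed as well: 6 of 8 neural markers were measured and all 6 were at least 1.5-fold lower in KO, against 13.0% of all measured genes, with a sum of 341 CPM in KO against 743 CPM in WT. The sums were 12.6 against 37.6 CPM for 6 streak and mesoderm markers, 17.4 against 9.89 CPM for 6 endoderm markers, 7.29 against 10.5 CPM for 5 amnion and trophoblast markers and 419 against 307 CPM for 6 fibroblast markers, of which DCN was at 0 in both libraries and COL3A1 at 0 in KO. By 1.5-fold, 5 of the 14 pluripotency markers were higher and 0 lower in KO, 2 of 2 measured streak and mesoderm markers were lower, 1 of 1 endoderm marker was higher, 1 of 3 fibroblast markers was higher and 0 of 1 amnion and trophoblast marker differed, against 3.94% of all measured genes higher. Their part in the results on lipid genes was not tested.

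With 1 library per genotype there is no test of a difference between KO and WT. A level is given in CPM of the summed UMIs, a ratio as log2 of KO over WT, and each 95% interval, in brackets, covers counting error only. Intervals of medians instead reflect the spread between genes. A gene counts as measured at a mean of at least 5 CPM over the libraries, and a difference is counted from 1.5-fold upward. In summed RNA, fewer cells that express a gene and less RNA per cell cannot be told apart.

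The pathway as a whole lay where the typical gene lay. Of the 29 genes, 26 were measured, and in kept cells 14 were lower in KO, against 65.2% of all 10129 measured genes, and 12 were higher, against 34.8%. MVK and INSIG2, 2 of the 26, were lower by 1.5-fold or more, against 13.0% of all measured genes, and 0 were higher by as much, against 3.94%. In the shallower barcodes 17 were lower, against 68.8% of all 10148 measured genes, and 9 were higher, against 31.2%. INSIG2 alone was lower by 1.5-fold, against 10.1% of all measured genes, and 0 were higher by that fold, against 2.79%. At a fold of 5/4 the members counted 7 lower and 3 higher in kept cells, against 30.7% and 10.3% of all genes, and 6 lower and 0 higher in the shallower barcodes, against 28.9% and 7.87%. At a fold of 2 there were 0 members either way, against 3.84% lower and 0.928% higher in kept cells and 2.85% and 0.512% in the shallower barcodes. The median log2 ratio of the measured members was -0.15 (-0.29 to 0.093, an interval of order statistics) in kept cells and -0.16 (-0.26 to 0.11) in the shallower barcodes. The median over all measured genes was -0.14 and -0.15 in the same sets of barcodes, so ratios near these values are those of the typical gene.

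**Figure D1:**
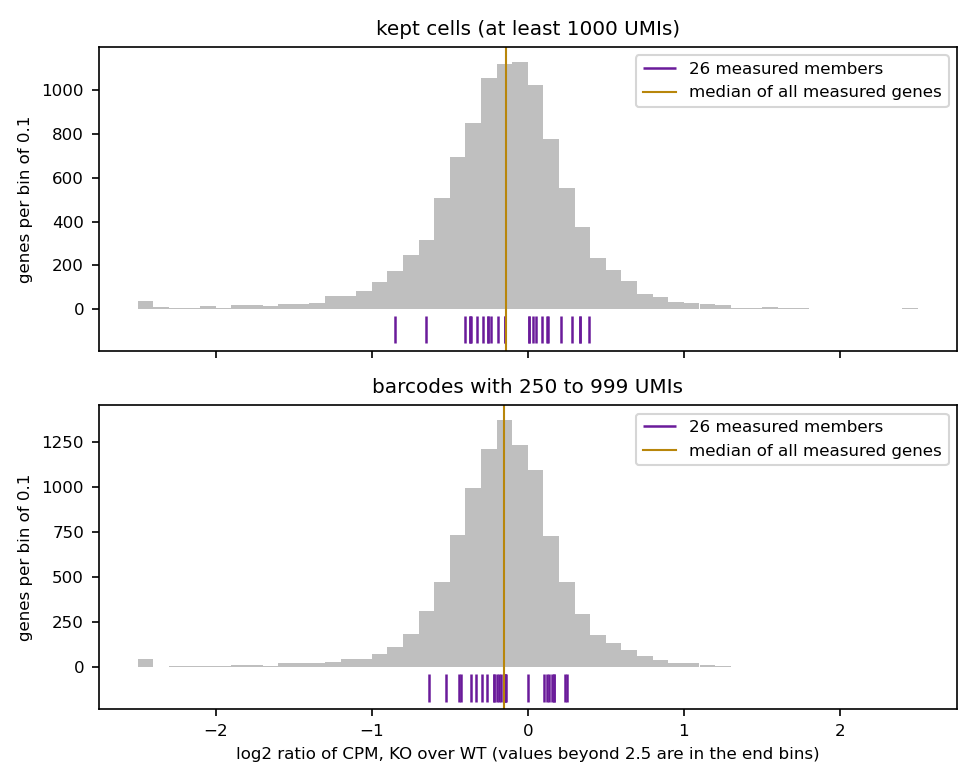
Histograms of the log2 ratio of CPM, KO over WT, for all measured genes (grey, genes per bin of 0.1) in kept cells (top) and barcodes with 250 to under 1000 UMIs (bottom). The purple ticks are the 26 measured genes of the pathway and the gold line is the median of all genes, at -0.14 and -0.15, which the members straddle in both panels.

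Summed over the 18 synthesis enzymes from ACAT2 to DHCR7, kept cells held 1350.1 CPM in KO, against 1485 CPM in WT, a log2 ratio of -0.14 (-0.19 to -0.084). Shallower barcodes held 1399 CPM in KO, against 1517 CPM in WT, a log2 ratio of -0.12 (-0.14 to -0.094). The lower sum in KO was of the size of the median shift of all genes: with the ratios centred on the median of genes of at least 20 CPM it was -0.022 in kept cells and, of the opposite sign, 0.002 in the shallower barcodes. The same ratio recurred at each depth of barcode. It was -0.13 at 100 to under 250 UMIs, -0.12 at 250 to under 500, -0.11 at 500 to under 1000, -0.13 at 1000 to under 2000 and -0.15 at 2000 or more UMIs. By stage, the 5 mevalonate and isoprenoid enzymes held 260.1 CPM in KO kept cells, against 319 CPM in WT kept cells (log2 ratio -0.29, -0.41 to -0.17), and the 8 enzymes after lanosterol held 432 CPM in KO, against 442 CPM in WT (-0.030, -0.13 to 0.066). In the shallower barcodes these 2 ratios were -0.24 (-0.30 to -0.19) and -0.018 (-0.056 to 0.020). The sum of the mevalonate and isoprenoid enzymes thus lay below the all-gene median and the sum after lanosterol above it in both sets. Single genes differed: 4 of 5 in the first stage lay below that median in each set, FDPS being above it, and after lanosterol 3 of 8 in kept cells and 2 of 8 in the shallower barcodes lay below it.

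**Figure D2:**
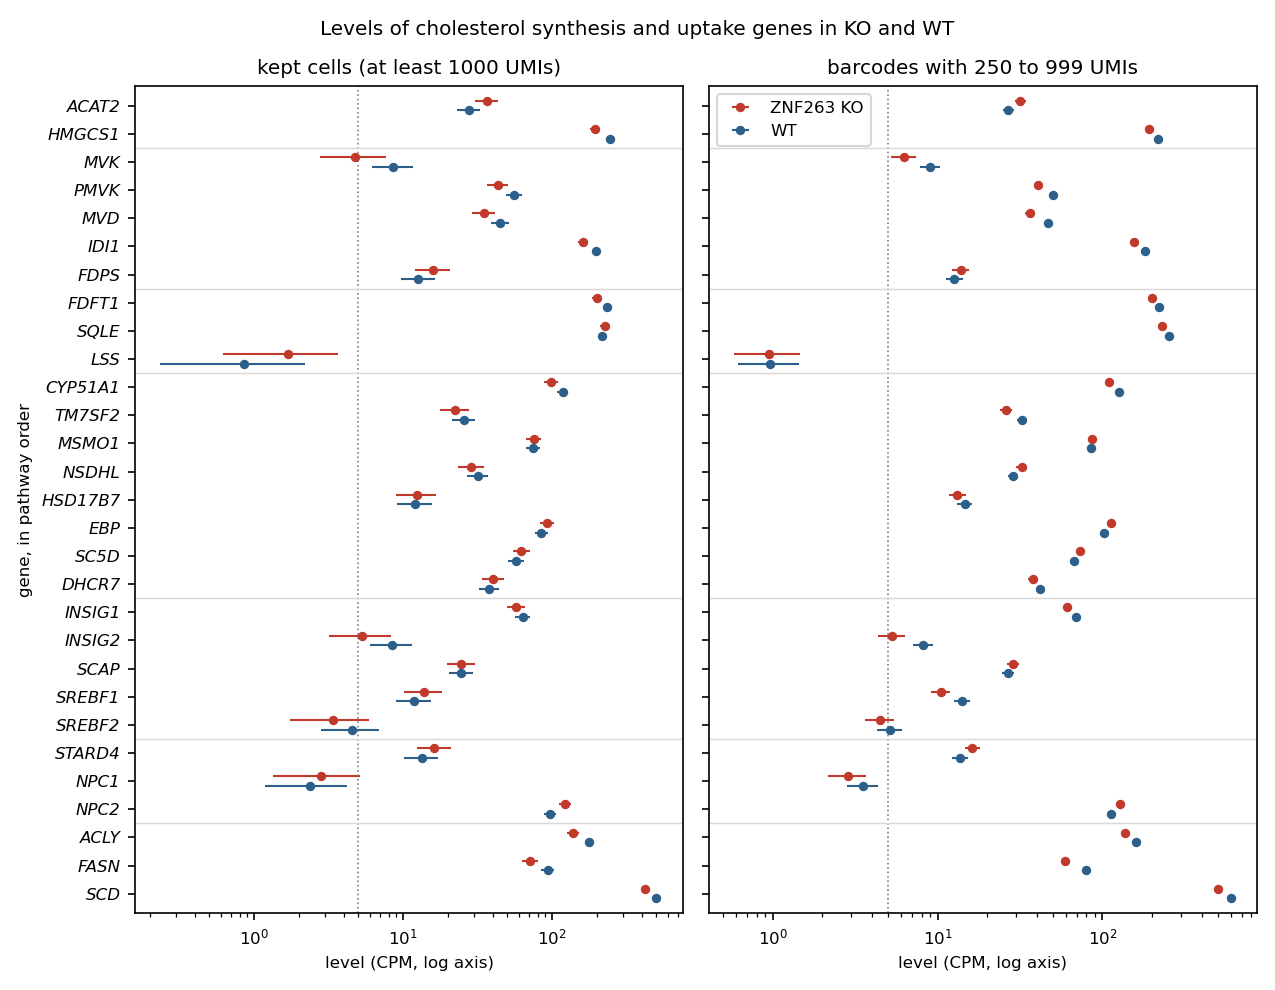
Level of each of the 29 genes (CPM, log axis) in ZNF263 KO (red) and WT (blue), in kept cells (left) and barcodes with 250 to under 1000 UMIs (right). Bars are exact Poisson intervals, which cover counting error only, and the dotted line marks 5 CPM. LSS, SREBF2 and NPC1 lie below or about the line in both panels.

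The entry into the pathway pointed both ways. ACAT2, the cytosolic thiolase that joins acetyl-CoA units to acetoacetyl-CoA, was higher in KO. ACAT2 held 130 UMIs in KO kept cells, against 129 in WT kept cells, or 36.4 against 27.7 CPM, a log2 ratio of 0.39 (0.031 to 0.76). ACAT2 UMIs in the shallower barcodes numbered 669 in KO, against 640 in WT, or 31.7 against 26.9 CPM, a log2 ratio of 0.24 (0.079 to 0.40). Both intervals lay above 0. Exons of ACAT2 overlap those of TCP1 and SOD2 on the opposite strand, and whether counting used the strand is not stated, so the ACAT2 counts are uncertain. TCP1 had log2 ratios of -0.082 in kept cells and 0.035 in the shallower barcodes. HMGCS1, which makes HMG-CoA from acetoacetyl-CoA, was lower in KO. HMGCS1 held 695 UMIs in KO kept cells, against 1134 in WT kept cells, or 195 against 244 CPM, a log2 ratio of -0.32 (-0.46 to -0.19). HMGCS1 UMIs in the shallower barcodes numbered 4040 in KO, against 5137 in WT, or 192 against 216 CPM, a log2 ratio of -0.17 (-0.23 to -0.11). Its interval lay below the all-gene median in kept cells and included it in the shallower barcodes.

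Of the 5 mevalonate and isoprenoid enzymes, 4 were lower in KO in both sets of barcodes. MVK, mevalonate kinase, had the lowest ratio of all measured members in kept cells, on few UMIs. MVK held 17 UMIs in KO kept cells, against 40 in WT kept cells, or 4.76 against 8.60 CPM, a log2 ratio of -0.85 (-1.76 to -0.00067). MVK UMIs in the shallower barcodes numbered 132 in KO, against 214 in WT, or 6.26 against 8.997 CPM, a log2 ratio of -0.52 (-0.85 to -0.20). It passed 1.5-fold in kept cells and not in the shallower barcodes, and in kept cells of at least 2000 UMIs its ratio was -0.14 (-1.64 to 1.27). MVK (GRCh38 chr12:109573272-109598125) shares exon bases with MMAB on the opposite strand, which had log2 ratios of -0.34 and -0.35, so without knowledge of the strand its counts are uncertain as well. PMVK, phosphomevalonate kinase, adds the next phosphate. PMVK held 154 UMIs in KO kept cells, against 260 in WT kept cells, or 43.2 against 55.9 CPM, a log2 ratio of -0.37 (-0.67 to -0.080). PMVK UMIs in the shallower barcodes numbered 862 in KO, against 1193 in WT, or 40.9 against 50.2 CPM, a log2 ratio of -0.30 (-0.42 to -0.17). The value was nearly the same in both sets. MVD, the decarboxylase that makes isopentenyl diphosphate, followed it closely. MVD held 124 UMIs in KO kept cells, against 208 in WT kept cells, or 34.8 against 44.7 CPM, a log2 ratio of -0.36 (-0.70 to -0.036). MVD UMIs in the shallower barcodes numbered 765 in KO, against 1109 in WT, or 36.3 against 46.6 CPM, a log2 ratio of -0.36 (-0.50 to -0.23). IDI1, the isomerase of isopentenyl diphosphate, was lower in KO too. IDI1 held 576 UMIs in KO kept cells, against 915 in WT kept cells, or 161 against 197 CPM, a log2 ratio of -0.29 (-0.44 to -0.13). IDI1 UMIs in the shallower barcodes numbered 3270 in KO, against 4291 in WT, or 155 against 180.4 CPM, a log2 ratio of -0.22 (-0.28 to -0.15). FDPS, farnesyl diphosphate synthase, was the exception of the group. FDPS held 57 UMIs in KO kept cells, against 59 in WT kept cells, or 16.0 against 12.7 CPM, a log2 ratio of 0.33 (-0.22 to 0.88). FDPS UMIs in the shallower barcodes numbered 291 in KO, against 301 in WT, or 13.8 against 12.7 CPM, a log2 ratio of 0.12 (-0.11 to 0.36). Both FDPS intervals included 0. In kept cells 7 FDPS pseudogenes held 3 UMIs in KO and 1 in WT.

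Squalene synthesis and cyclisation gave 2 well measured genes and 1 near absent one. FDFT1, squalene synthase, was lower in KO by about the all-gene median. FDFT1 held 710 UMIs in KO kept cells, against 1091 in WT kept cells, or 199 against 235 CPM, a log2 ratio of -0.24 (-0.38 to -0.10). FDFT1 UMIs in the shallower barcodes numbered 4213 in KO, against 5256 in WT, or 199.8 against 221 CPM, a log2 ratio of -0.15 (-0.20 to -0.087). SQLE, squalene epoxidase, a flux-controlling step of the pathway, differed in direction between the sets. SQLE held 805 UMIs in KO kept cells, against 1013 in WT kept cells, or 226 against 218 CPM, a log2 ratio of 0.051 (-0.085 to 0.19). SQLE UMIs in the shallower barcodes numbered 4868 in KO, against 6064 in WT, or 231 against 254.96 CPM, a log2 ratio of -0.14 (-0.20 to -0.089). The interval included 0 in kept cells and lay below 0 in the shallower barcodes. LSS, lanosterol synthase, was below 5 CPM throughout. LSS held 6 UMIs in KO kept cells, against 4 in WT kept cells, or 1.68 against 0.860 CPM, a log2 ratio of 0.97 (-1.11 to 3.24). LSS UMIs in the shallower barcodes numbered 20 in KO, against 23 in WT, or 0.948 against 0.967 CPM, a log2 ratio of -0.028 (-0.97 to 0.90). No direction could be read for LSS at this depth.

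After lanosterol, no enzyme differed by 1.5-fold. CYP51A1, the lanosterol demethylase, was lower in KO in both sets. CYP51A1 held 351 UMIs in KO kept cells, against 547 in WT kept cells, or 98.4 against 118 CPM, a log2 ratio of -0.26 (-0.46 to -0.062). CYP51A1 UMIs in the shallower barcodes numbered 2319 in KO, against 2995 in WT, or 110.0 against 126 CPM, a log2 ratio of -0.20 (-0.27 to -0.12). Within kept cells of at least 2000 UMIs its log2 ratio was -0.78 (-1.17 to -0.41), past 1.5-fold. CYP51A1 pseudogenes held 19 UMIs in KO and 33 in WT kept cells. An exon of CYP51A1 shares 1685 bases with AC000120.2 on the same strand, a gene that neither library lists, so its counts are uncertain as well. TM7SF2, a sterol C14 reductase, was the other enzyme of this stage that was lower in both sets. TM7SF2 held 80 UMIs in KO kept cells, against 119 in WT kept cells, or 22.4 against 25.6 CPM, a log2 ratio of -0.19 (-0.62 to 0.23). TM7SF2 UMIs in the shallower barcodes numbered 548 in KO, against 777 in WT, or 25.99 against 32.7 CPM, a log2 ratio of -0.33 (-0.49 to -0.17). Its interval included 0 in kept cells. MSMO1, the methylsterol monooxygenase, stood at nearly the same level in both libraries. MSMO1 held 268 UMIs in KO kept cells, against 348 in WT kept cells, or 75.1 against 74.8 CPM, a log2 ratio of 0.0054 (-0.23 to 0.24). MSMO1 UMIs in the shallower barcodes numbered 1810 in KO, against 2041 in WT, or 85.8 against 85.8 CPM, a log2 ratio of 0.00041 (-0.092 to 0.092). NSDHL, which removes the oxidised C4 carbon, was near the WT level. NSDHL held 102 UMIs in KO kept cells, against 147 in WT kept cells, or 28.6 against 31.6 CPM, a log2 ratio of -0.14 (-0.52 to 0.23). NSDHL UMIs in the shallower barcodes numbered 681 in KO, against 683 in WT, or 32.3 against 28.7 CPM, a log2 ratio of 0.17 (0.014 to 0.32). The NSDHL ratio changed sign between the sets, with an interval above 0 in the shallower barcodes alone. HSD17B7, the 3-ketosteroid reductase, gave intervals that included 0 in both sets. HSD17B7 held 44 UMIs in KO kept cells, against 56 in WT kept cells, or 12.3 against 12.04 CPM, a log2 ratio of 0.034 (-0.57 to 0.63). HSD17B7 UMIs in the shallower barcodes numbered 278 in KO, against 347 in WT, or 13.2 against 14.6 CPM, a log2 ratio of -0.15 (-0.38 to 0.086). Its pseudogenes held 8 UMIs in KO and 4 in WT kept cells, and 34 in KO and 15 in WT in the shallower barcodes. EBP, the sterol isomerase, was slightly higher in KO. EBP held 332 UMIs in KO kept cells, against 395 in WT kept cells, or 93.1 against 84.9 CPM, a log2 ratio of 0.13 (-0.083 to 0.35). EBP UMIs in the shallower barcodes numbered 2385 in KO, against 2418 in WT, or 113 against 102 CPM, a log2 ratio of 0.15 (0.072 to 0.24). Of its 2 intervals, that of the shallower barcodes lay above 0.

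The last steps followed. SC5D, the lathosterol desaturase, gave ratios close to those of EBP. SC5D held 222 UMIs in KO kept cells, against 266 in WT kept cells, or 62.2 against 57.2 CPM, a log2 ratio of 0.12 (-0.14 to 0.38). SC5D UMIs in the shallower barcodes numbered 1548 in KO, against 1588 in WT, or 73.4 against 66.8 CPM, a log2 ratio of 0.14 (0.035 to 0.24). DHCR7, the reductase that completes cholesterol from 7-dehydrocholesterol, changed sign between the sets. DHCR7 held 144 UMIs in KO kept cells, against 176 in WT kept cells, or 40.4 against 37.8 CPM, a log2 ratio of 0.093 (-0.24 to 0.42). DHCR7 UMIs in the shallower barcodes numbered 804 in KO, against 1000 in WT, or 38.1 against 42.0 CPM, a log2 ratio of -0.14 (-0.28 to -0.0056). Its interval in the shallower barcodes ended just below 0.

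**Figure D3:**
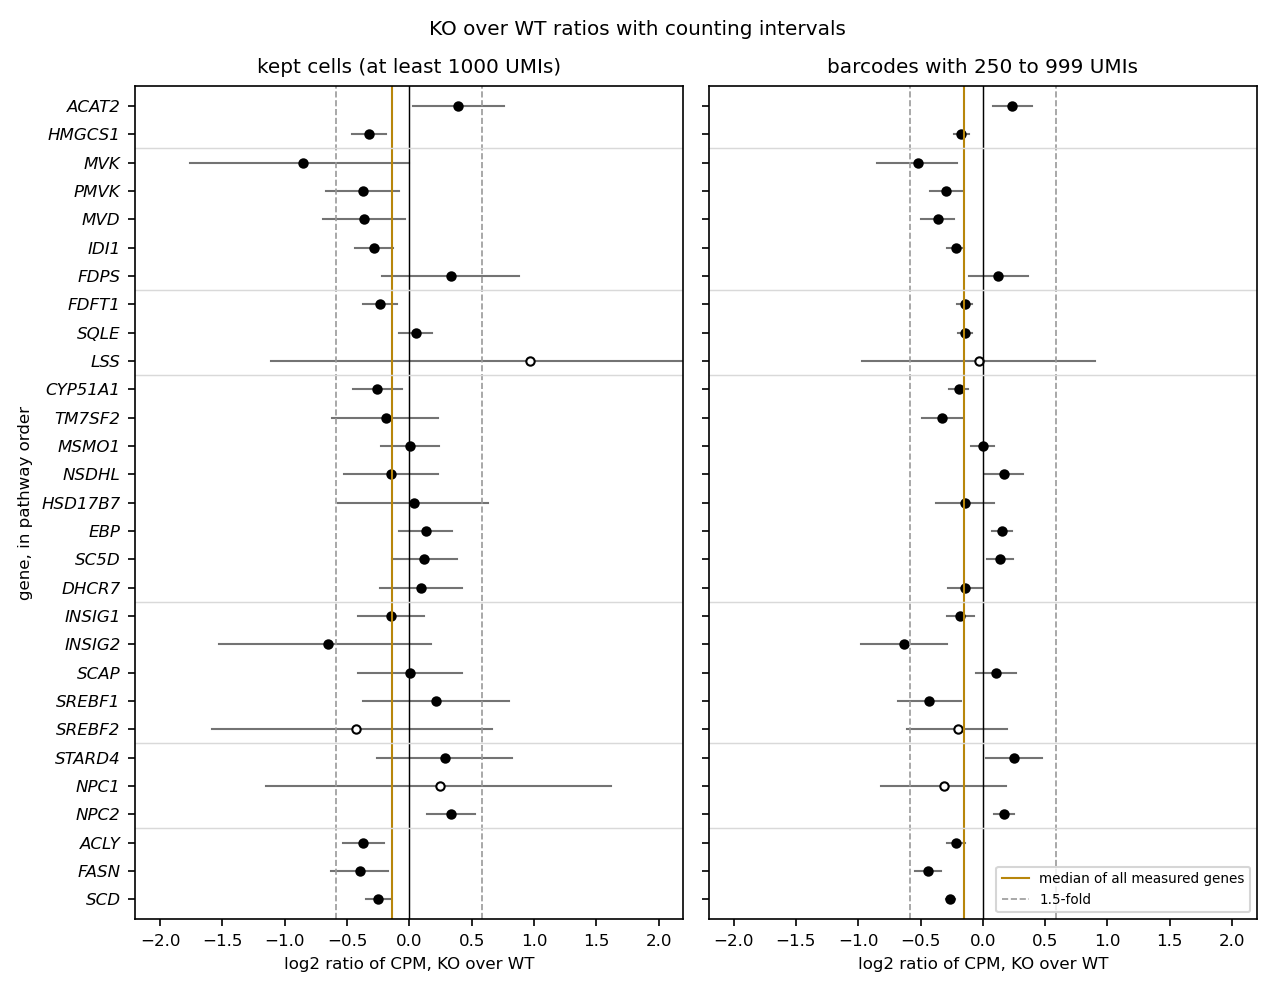
Log2 ratio of CPM, KO over WT, of each gene in kept cells (left) and barcodes with 250 to under 1000 UMIs (right), with exact intervals of counting error. Filled points are measured genes and open points lie under a mean of 5 CPM. The gold line is the median of all measured genes, dashed lines mark 1.5-fold, and the LSS interval in kept cells runs past the axis to 3.24. Only MVK and INSIG2 on the left and INSIG2 on the right lie outside the dashed lines among filled points.

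Among the sterol sensing genes INSIG2 stood lowest. INSIG1, the sterol-induced anchor of the SCAP complex, differed by about the all-gene median. INSIG1 held 205 UMIs in KO kept cells, against 296 in WT kept cells, or 57.5 against 63.7 CPM, a log2 ratio of -0.15 (-0.41 to 0.11). INSIG1 UMIs in the shallower barcodes numbered 1278 in KO, against 1635 in WT, or 60.6 against 68.7 CPM, a log2 ratio of -0.18 (-0.29 to -0.075). INSIG2 (GRCh38 chr2:118088471-118110997), its less sterol-responsive relative, was lower in KO by more than 1.5-fold in both sets, on small counts. INSIG2 held 19 UMIs in KO kept cells, against 39 in WT kept cells, or 5.33 against 8.39 CPM, a log2 ratio of -0.66 (-1.53 to 0.17). INSIG2 UMIs in the shallower barcodes numbered 111 in KO, against 194 in WT, or 5.26 against 8.16 CPM, a log2 ratio of -0.63 (-0.98 to -0.29). The interval included 0 in kept cells, where the counts are small, and lay below the all-gene median in the shallower barcodes. INSIG2 stayed under 1.5-fold, still lower in KO, where ratios were centred on the median of genes of at least 20 CPM (-0.54 in kept cells and -0.51 in the shallower barcodes), in the shallower barcodes scaled without mitochondrial and ribosomal protein genes (-0.57), from 500 UMIs upward (-0.42, -0.90 to 0.043), from 2000 UMIs upward (-0.26, -1.74 to 1.12) and at 500 to under 1000 UMIs (-0.32, -0.91 to 0.25). SCAP, the escort of the SREBPs, was close to equal. SCAP held 88 UMIs in KO kept cells, against 114 in WT kept cells, or 24.7 against 24.5 CPM, a log2 ratio of 0.0088 (-0.41 to 0.42). SCAP UMIs in the shallower barcodes numbered 607 in KO, against 636 in WT, or 28.8 against 26.7 CPM, a log2 ratio of 0.11 (-0.056 to 0.27). SREBF1, which encodes the SREBP that acts mainly on fatty acid genes, gave opposite signs. SREBF1 held 49 UMIs in KO kept cells, against 55 in WT kept cells, or 13.7 against 11.8 CPM, a log2 ratio of 0.22 (-0.37 to 0.80). SREBF1 UMIs in the shallower barcodes numbered 220 in KO, against 334 in WT, or 10.4 against 14.0 CPM, a log2 ratio of -0.43 (-0.68 to -0.18). With the minimum set to 500 UMIs instead of 1000, the SREBF1 ratio was -0.40 (-0.75 to -0.048). SREBF2, which encodes the SREBP that acts mainly on cholesterol genes, had a mean over the libraries of under 5 CPM in both sets. SREBF2 held 12 UMIs in KO kept cells, against 21 in WT kept cells, or 3.36 against 4.52 CPM, a log2 ratio of -0.43 (-1.58 to 0.66). SREBF2 UMIs in the shallower barcodes numbered 94 in KO, against 122 in WT, or 4.46 against 5.13 CPM, a log2 ratio of -0.20 (-0.61 to 0.20). Both SREBF2 intervals included 0. The 5 genes with GGAGGAGG in a promoter window, MVK, TM7SF2, DHCR7, INSIG2 and SREBF1, had log2 ratios between -0.63 and -0.14 in the shallower barcodes. There 68.8% of all measured genes were lower in KO, with a median of -0.15. In kept cells the 5 ratios lay between -0.85 and 0.22, with DHCR7 (0.093) and SREBF1 (0.22) higher in KO, and 65.2% of all measured genes were lower. Whether the motif has a part in these ratios was not tested.

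Of the transport genes, 2 were measured and both were higher in KO. STARD4, a carrier of sterol through the cytosol, had ratios of like size in both sets. STARD4 held 58 UMIs in KO kept cells, against 62 in WT kept cells, or 16.3 against 13.3 CPM, a log2 ratio of 0.29 (-0.26 to 0.83). STARD4 UMIs in the shallower barcodes numbered 343 in KO, against 325 in WT, or 16.3 against 13.7 CPM, a log2 ratio of 0.25 (0.028 to 0.47). Its interval reached below 0 in kept cells. NPC1, the lysosomal membrane transporter, was under 5 CPM and showed no direction. NPC1 held 10 UMIs in KO kept cells, against 11 in WT kept cells, or 2.80 against 2.37 CPM, a log2 ratio of 0.24 (-1.15 to 1.62). NPC1 UMIs in the shallower barcodes numbered 60 in KO, against 84 in WT, or 2.85 against 3.53 CPM, a log2 ratio of -0.31 (-0.81 to 0.18). NPC2 (GRCh38 chr14:74479935-74493512), the soluble lysosomal partner of NPC1, was the member whose interval lay farthest above 0 in both sets. NPC2 held 435 UMIs in KO kept cells, against 450 in WT kept cells, or 122 against 96.8 CPM, a log2 ratio of 0.33 (0.14 to 0.53). NPC2 UMIs in the shallower barcodes numbered 2680 in KO, against 2686 in WT, or 127 against 113 CPM, a log2 ratio of 0.17 (0.093 to 0.25). Both NPC2 intervals lay above 0. NPC2 shares exon bases with ISCA2 on the opposite strand, which had log2 ratios of -0.048 and 0.15. Thinned to 1000 UMIs per cell, 13.2% of KO kept cells (11.8% to 14.7%) held a UMI of a transport gene, against 10.7% of WT kept cells (9.64% to 11.9%). Without thinning the shares were 19.5% and 15.9%.

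The 3 fatty acid genes were all lower in KO. ACLY, the ATP citrate lyase, supplies cytosolic acetyl-CoA to both pathways. ACLY held 492 UMIs in KO kept cells, against 828 in WT kept cells, or 138 against 178 CPM, a log2 ratio of -0.37 (-0.53 to -0.21). ACLY UMIs in the shallower barcodes numbered 2895 in KO, against 3792 in WT, or 137 against 159 CPM, a log2 ratio of -0.22 (-0.29 to -0.15). FASN, fatty acid synthase, was lowest of the 3. FASN held 253 UMIs in KO kept cells, against 435 in WT kept cells, or 70.9 against 93.5 CPM, a log2 ratio of -0.40 (-0.63 to -0.17). FASN UMIs in the shallower barcodes numbered 1242 in KO, against 1900 in WT, or 58.9 against 79.9 CPM, a log2 ratio of -0.44 (-0.54 to -0.34). SCD (GRCh38 chr10:100347233-100364826), the desaturase that makes monounsaturated fatty acids, had the most UMIs of any member. SCD held 1491 UMIs in KO kept cells, against 2315 in WT kept cells, or 418 against 498 CPM, a log2 ratio of -0.25 (-0.35 to -0.16). SCD UMIs in the shallower barcodes numbered 10572 in KO, against 14311 in WT, or 501 against 602 CPM, a log2 ratio of -0.26 (-0.30 to -0.23). All 6 intervals lay below 0, and those of FASN and SCD lay below the all-gene median in both sets. Summed, the 3 genes held 627 CPM in KO kept cells, against 769 CPM in WT kept cells (log2 ratio -0.30, -0.37 to -0.22). A UMI of these genes was found in 46.9% of thinned KO cells (44.8% to 48.9%), against 53.2% of thinned WT cells (51.4% to 55.0%), and in 57.6% against 65.8% without thinning.

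A wider list of 38 lipid genes outside the 29 gave 37 genes in the files and 34 measured in kept cells. Of these 34, 27 were lower and 7 higher in KO, and 7 differed by 1.5-fold or more (5 lower, 2 higher). Among all measured genes 65.2% were lower, 13.0% lower by 1.5-fold and 3.94% higher by 1.5-fold, shares near those of the list by fold. Their median log2 ratio was -0.29 (-0.35 to -0.14), below the all-gene median of -0.14, and -0.14 in the shallower barcodes, where it was close to that of all genes. The 6 measured genes of SREBP activation and turnover were all lower in KO in kept cells, and 5 of 6 were lower in the shallower barcodes, where 68.8% of all measured genes were. In each set of barcodes 1 of the 6 passed 1.5-fold. The 4 named by size at a mean of at least 10 CPM follow. LPIN1, a phosphatidate phosphatase and coregulator of lipid genes, held 29 UMIs in KO kept cells, against 79 in WT kept cells, a log2 ratio of -1.06 (-1.73 to -0.43), and -0.98 (-1.25 to -0.72) in the shallower barcodes. ACSS2, which makes acetyl-CoA from acetate, held 41 UMIs in KO, against 88 in WT, with ratios of -0.72 (-1.29 to -0.17) and -0.44 (-0.68 to -0.21). ERLIN1, an ER protein that restrains SREBP activation, held 58 UMIs in KO, against 107 in WT, with ratios of -0.50 (-0.99 to -0.027) and -0.26 (-0.45 to -0.071). MYLIP, a ubiquitin ligase that liver X receptors switch on and that lowers sterol uptake, held 118 UMIs in KO, against 95 in WT, with ratios of 0.70 (0.29 to 1.1003) and 0.67 (0.49 to 0.85).

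Per cell, synthesis RNA was spread through both libraries. Thinned to 1000 UMIs, 71.7% of KO kept cells (69.8% to 73.5%) held at least 1 UMI of the 18 synthesis genes, against 75.2% of WT kept cells (73.6% to 76.7%). Without thinning the shares were 81.5% and 84.7%. The mean was 1.34 UMIs per thinned cell in KO and 1.46 in WT. The variance over the mean was 1.12 in KO and 1.17 in WT, where a sum of the single genes' variances alone gave 1.03 and 1.055. Thinned cells without a synthesis UMI made up 28.3% in KO and 24.8% in WT, where a Poisson draw with the same mean gives 26.1% and 23.1%. At the other end, 7 or more UMIs were found in 2 KO cells and 9 WT cells. In the shallower barcodes, thinned to 250 UMIs, the shares were 29.2% in KO and 31.2% in WT, with a variance over the mean of 1.02 and 1.03. No cells that should lack these genes were at hand, so the part of free RNA in these shares was not tested.

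The median log2 ratio of the members lay farther from 0 along the mitochondrial share of the barcode, inside each library, than between the libraries. This did not hold for the sum of the cytosolic genes described below, whose KO over WT log2 ratio was -0.28 (-0.35 to -0.20) in kept cells. Barcodes with 0 to 2% mitochondrial UMIs were set against barcodes of the same library with over 5 to 10%, with CPM computed here over UMIs that are not mitochondrial. At 0 to 2%, 15 of 26 members measured in KO kept cells were lower by 1.5-fold or more, against 23.8% of all 9870 measured genes, and 2 were higher by that fold, against 9.02%. In WT kept cells 11 of 26 were lower by that fold, against 28.3% of 10208 genes, and 2 were higher, against 5.52%. The median log2 ratio of the members was -0.75 in KO and -0.57 in WT, beside -0.042 and -0.12 for all genes. In the shallower barcodes 14 of 26 were lower by 1.5-fold in KO, against 20% of genes, and 7 of 27 in WT, against 18%, while 0 were higher by that fold in either library, against 3.65% and 2.83% of genes.

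The members split by where their proteins reside. Classes were assigned from textbook knowledge after the members' values along the mitochondrial share had been seen: 15 genes encode proteins of the ER membrane or the secretory route, 10 encode soluble cytosolic proteins, and 4 (FDFT1, LSS, NSDHL and HSD17B7) encode ER or lipid droplet enzymes anchored at an end, held peripherally or of unsettled anchoring. Of the first class 13 were measured, and in kept cells 13 of 13 were at least 1.5-fold lower at 0 to 2% in KO and 10 of 13 in WT, with medians of -1.21 and -1.25. The 10 cytosolic genes had medians of 0.24 in KO and -0.12 in WT, and 2 in KO and 0 in WT were lower by 1.5-fold. In the shallower barcodes the first class had medians of -0.85 in KO (13 genes measured) and -0.58 in WT (14 measured), and the 10 cytosolic genes -0.14 in KO and -0.069 in WT. By 1.5-fold, 12 of 13 of the first class were lower there in KO and 7 of 14 in WT, against 1 and 0 of the 10 cytosolic genes. SQLE, an ER membrane enzyme, stood at 93.3 CPM at 0 to 2%, against 296 at over 5 to 10% in KO (log2 ratio -1.66, -2.04 to -1.31), and at 110.3 against 300.3 in WT (-1.44, -1.72 to -1.17). MSMO1 stood at 31.1 against 103.8 CPM in KO (-1.74, -2.41 to -1.12) and at 42.6 against 101.5 in WT (-1.25, -1.72 to -0.81). SCD stood at 229 against 522 CPM in KO (-1.19, -1.43 to -0.95) and at 251 against 632 in WT (-1.33, -1.51 to -1.15). The cytosolic enzymes of the same pathways did not share this. HMGCS1 stood at 214 against 199 CPM in KO (0.10, -0.17 to 0.38) and at 238 against 276 in WT (-0.22, -0.43 to -0.0046). FASN stood at 89.6 against 69.2 CPM in KO (0.37, -0.078 to 0.82) and at 104.0 against 102.0 in WT (0.028, -0.31 to 0.36). ACLY was higher at 0 to 2%, at 185 against 137 CPM in KO (0.44, 0.12 to 0.74) and 234 against 149 in WT (0.65, 0.40 to 0.90). In the third class FDFT1 was near equal, with ratios of 0.17 (-0.094 to 0.44) in KO and 0.030 (-0.18 to 0.24) in WT, and NSDHL had ratios of -0.11 and -0.33 with intervals that included 0. HSD17B7 varied, with ratios of -0.36 (-1.76 to 0.88) in KO and -1.80 (-3.22 to -0.60) in WT kept cells, and -2.21 (-4.50 to -0.63) in KO and 0.13 (-0.64 to 0.83) in WT shallower barcodes, on 3 to 20 UMIs at 0 to 2%. Exceptions to the split in kept cells were STARD4 in KO, cytosolic and lower at 0 to 2% by -1.54 (-3.09 to -0.28) on 6 UMIs, and MVD in KO (-0.65, -1.40 to 0.050). In the shallower barcodes cytosolic MVK in KO was lower by -1.26 (-3.57 to 0.34) on 3 UMIs. The ER genes INSIG2 in KO (0.087, -1.60 to 1.41) and SREBF2 in WT (0.099, -1.12 to 1.15) were not lower there.

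**Figure D4:**
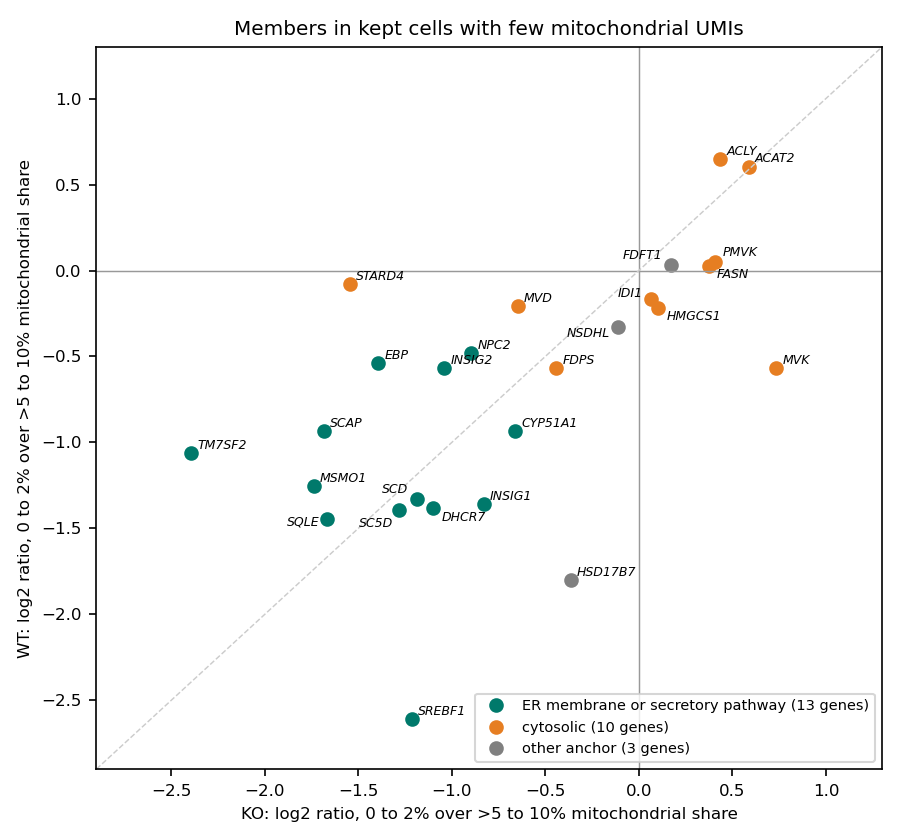
Log2 ratio of the level at 0 to 2% over that at over 5 to 10% mitochondrial share, in KO kept cells (horizontal axis) and WT kept cells (vertical axis), for the 26 genes measured in both. All 13 genes of the ER membrane or secretory route (green) lie below 0 on both axes, while the 10 cytosolic genes (orange) and 3 genes with another anchor (grey) lie about 0 with exceptions.

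Summed over the class, the 15 ER and secretory genes held 670 CPM (614 to 729) at 0 to 2% and 1588 (1526 to 1652) at over 5 to 10% in KO kept cells, and 752 (705 to 801) and 1700 (1639 to 1763) in WT kept cells. The 10 cytosolic genes held 833 and 743 CPM in KO, and 942 and 920 in WT. The class called ER for short also holds proteins of the secretory route, such as lysosomal NPC1 and NPC2. The ratio of UMIs of this class to cytosolic UMIs was 0.80 at 0 to 2% in both libraries, and 2.14 in KO and 1.85 in WT at over 5 to 10%. The same split at 0 to 2% appeared in the wider lipid list. In kept cells 13 of 16 ER or secretory genes in KO, and 15 of 18 in WT, were at least 1.5-fold lower. The shares of all measured genes were 23.8% and 28.3%. Of the cytosolic genes 1 of 9 was lower by that fold in each library, and of the remaining class 2 of 7. In the shallower barcodes 12 of 16 ER or secretory genes in KO and 9 of 18 in WT were lower by that fold. There the shares of all genes were 20% and 18%, and the cytosolic counts were 1 of 9 and 0 of 8. Kept cells at 0 to 2% were not shallower. Their medians were 1415 UMIs in KO and 1415.5 in WT, against 1330 and 1396 UMIs at over 5 to 10%. Their pluripotency markers summed to 6046 CPM in KO and 5399 in WT, against 5940 and 4636 at over 5 to 10%, and their neural markers to 361 CPM in KO and 500.4 in WT, against 350.4 and 897. Fibroblast markers moved with the ER sum, at 220 CPM in KO and 180 in WT at 0 to 2%, against 541 and 398 at over 5 to 10%. Streak and mesoderm markers summed to 23.6 CPM in KO and 37.8 in WT at 0 to 2%, against 8.33 and 33.8, endoderm markers to 19.9 and 13.4, against 17.3 and 8.75, and amnion and trophoblast markers to 11.2 and 17.3, against 6.41 and 8.16. The part of these markers and of RNA quality in this split was not tested.

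**Figure D5:**
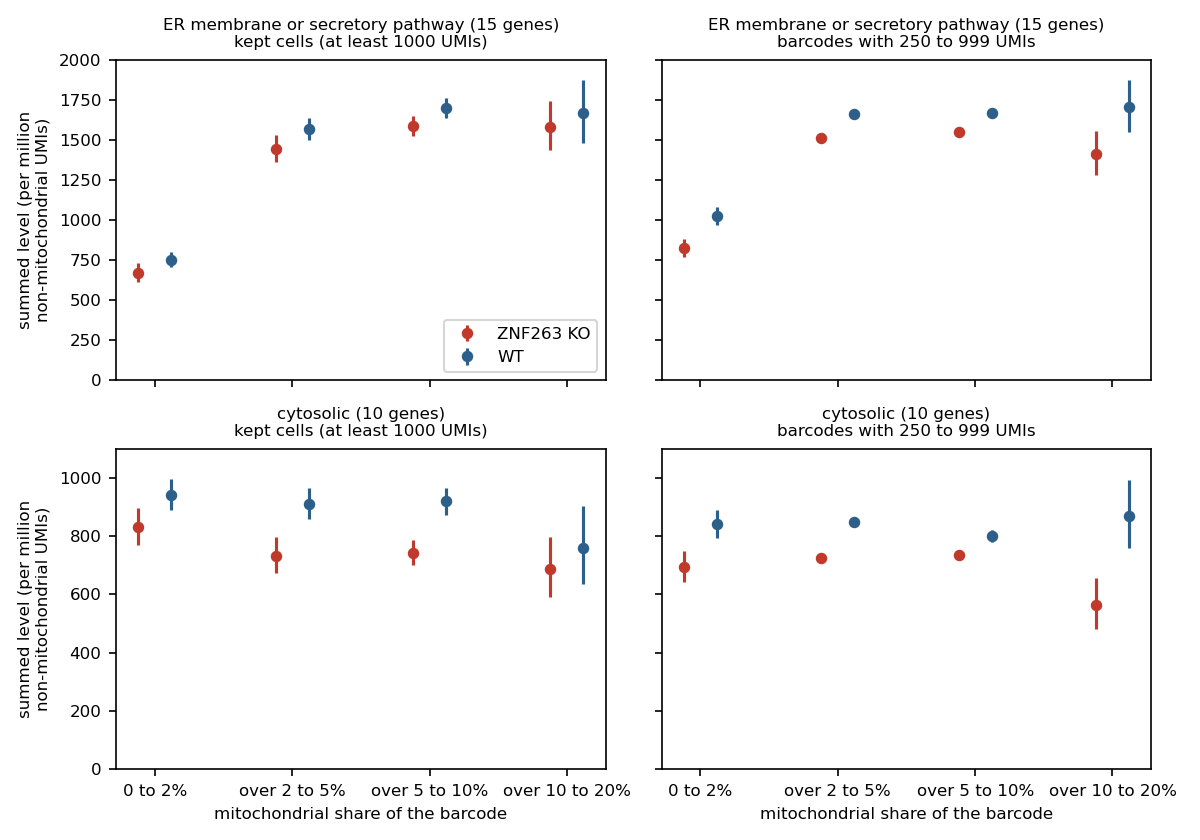
Summed level (CPM over UMIs that are not mitochondrial) of the 15 ER or secretory genes (top) and the 10 cytosolic genes (bottom) by mitochondrial share of the barcode, in ZNF263 KO (red) and WT (blue), in kept cells (left) and barcodes with 250 to under 1000 UMIs (right). Bars are exact Poisson intervals. The ER sum at 0 to 2% lies below its value at higher shares in both libraries and both sets of barcodes, while the cytosolic sum shows no such step.

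The libraries differed in how many barcodes fell at each share. In kept cells 22.1% of KO and 26.7% of WT cells lay at 0 to 2%, and 43.7% and 36.3% at over 5 to 10%. Among the shallower barcodes 3.84% in KO and 4.88% in WT lay at 0 to 2%. Within the stratum of over 5 to 10%, the KO over WT log2 ratio of the ER sum was -0.098 (-0.18 to -0.020) and that of the cytosolic sum -0.31 (-0.42 to -0.20) in kept cells, and -0.11 (-0.14 to -0.076) and -0.12 (-0.17 to -0.075) in the shallower barcodes. Over all kept cells the medians of the measured genes were 0.0088 for the ER class and -0.34 for the cytosolic class, and -0.14 and -0.22 in the shallower barcodes. The distance between the classes varied by stratum. At 0 to 2% they were alike in kept cells, at -0.17 for the ER sum and -0.18 for the cytosolic sum, and at over 2 to 5% they were -0.12 and -0.31. In the shallower barcodes the intervals of the class sums overlapped at over 5 to 10% and did not at over 2 to 5% (-0.14, -0.17 to -0.10, and -0.23, -0.27 to -0.18) or over all these barcodes (-0.12, -0.14 to -0.098, and -0.20, -0.23 to -0.17). At over 10 to 20% they were -0.27 and -0.63, with intervals that overlapped.

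Levels also differed between kept cells and shallower barcodes of the same library. SCD was lower in kept cells by a log2 ratio of -0.26 (-0.34 to -0.18) in KO and -0.27 (-0.34 to -0.21) in WT, EBP by -0.28 (-0.45 to -0.12) and -0.26 (-0.42 to -0.11), and SC5D by -0.24 (-0.45 to -0.035) and -0.22 (-0.42 to -0.035). FASN was higher in kept cells, by 0.27 (0.067 to 0.46) in KO and 0.23 (0.074 to 0.38) in WT. These 4, chosen after their values were seen, had the same sign and like size in KO and WT, and other genes did not: SQLE was at -0.033 (-0.14 to 0.075) in KO and -0.23 (-0.32 to -0.13) in WT, HMGCS1 at 0.024 (-0.094 to 0.14) and 0.18 (0.081 to 0.27), and SREBF1 at 0.40 (-0.081 to 0.85) and -0.25 (-0.69 to 0.17).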

How the data were processed

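Per the labels' protocols, H1 cells were dissociated, checked for viability and loaded with barcoded beads into microwells, polyadenylated RNA was reverse transcribed and the pooled cDNA was cut with Tn5. The deposited files hold UMI counts per gene and barcode, not normalized. Per the submitters' processing notes, UMI-tools 1.1.2, STAR 2.7.10a, featureCounts 2.0.1 of Subread and the hg38 build were used. How strand, cell filters and doublets were handled is not given in the sources used here. The KO matrix has 15 entries beyond the number in its header, none of them repeated, and all were used.

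Counts were summed over kept cells (at least 1000 UMIs and 500 genes, at most 20% mitochondrial UMIs) and over barcodes with 250 to under 1000 UMIs, with no mitochondrial limit there. Kept cells held 6.54% of KO and 7.68% of WT UMIs. Sums were scaled to CPM over all genes. Intervals of levels are exact Poisson, of ratios exact conditional binomial and of shares Clopper-Pearson, all at 95% and for counting error only. Intervals of medians are from order statistics at 95% and reflect the spread between genes. Those of levels, ratios and medians were checked on simulated data, with Poisson counts for levels and ratios. UMIs are counted at polyadenylated ends, so levels were not ranked between genes. For shares of cells, each kept cell was thinned to 1000 UMIs and each shallower barcode to 250. No doublet caller was run; as an alternative, 10 KO and 16 WT cells over 4 times the median were left out.

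Each genotype has 1 library, so no test between them was made, and a rule of size, 1.5-fold at a mean of at least 5 CPM, stands in for it. All 29 genes were named, and of the wider lipid list the 4 that differed most among genes of 10 CPM or more on average. The members and lists were chosen with earlier results of these data known. Promoters are from the RefSeq table (GRCh38.p14), and 4 genes (ACAT2, FDFT1, SQLE and FASN) had none there. Gene positions are from RefSeq, and exon overlaps and untranslated exons are from GENCODE v29. Overlaps on the opposite strand were found for further members, among them IDI1 (with IDI2-AS1) and SREBF1 (with RAI1), whose counts carry the same limit. Of 38 wider lipid genes 37 were found by symbol. Alternatives changed the scaling, the filters on barcodes and genes, the fold and the thinning. Python 3.11.15, NumPy 2.4.6, SciPy 1.17.1 and pandas 2.3.3 were used.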

Additional observations from a re-analysis of the deposited data

How the results depend on the processing

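Of 99 recomputed summary values, 79 kept their direction and size, 19 moved and 1 reversed. Scaled without mitochondrial and ribosomal protein genes, the log2 ratio of summed synthesis CPM was -0.073 in kept cells and -0.055 in shallower barcodes; centred on the median of genes of at least 20 CPM it was -0.022 and, reversed, 0.0022. Both settings shift all genes alike: the median of genes of at least 20 CPM was -0.12 as reported and -0.058 in kept cells under the first. The count of members at least 1.5-fold lower in KO kept cells (2 as reported) was 1 when centred, 1 from 500 UMIs upward (MVK), 1 from 2000 UMIs upward (CYP51A1), 0 at a mean of at least 20 CPM, 7 at a fold of 5/4 and 0 at a fold of 2. The count higher in KO kept cells (0 as reported) was 1 from 2000 UMIs upward (STARD4, 0.83, -0.30 to 1.99), 2 in cells thinned to 1000 UMIs (ACAT2 at 0.60 and FDPS at 0.63), 1 with no filter on low values (LSS) and 3 at a fold of 5/4. In shallower barcodes the count lower (1 as reported) was 0 in both scalings, 2 at 500 to under 1000 UMIs, 0 at a mean of at least 20 CPM, 6 at a fold of 5/4 and 0 at a fold of 2. Of 435 values of single members 404 were the same and 31 moved; INSIG1 was 0.18 (-0.30 to 0.65) and MVD -0.0021 (-0.64 to 0.62) from 2000 UMIs upward, and NPC1 was -1.26 (-2.25 to -0.34) at 500 to under 1000 UMIs. The cause of the changes with depth was not tested. Leaving out barcodes used in both libraries, and limiting the shallower barcodes to 20% mitochondrial UMIs, were chosen after seeing the data, and neither moved a value. Depth limits LSS, SREBF2 and NPC1, with under 25 UMIs a library in kept cells. No paired analysis was possible because each genotype has 1 library, and for the same reason no replicate could be left out.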

Other observations

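Outside the 29 genes, 3 of the 12 measured genes of esterification, efflux and transfer (SOAT1, ABCA1 and MYLIP) differed by 1.5-fold in both sets of barcodes, and the other 9 in neither. By that fold 1 was lower, against 13.0% of all measured genes in kept cells and 10.1% in the shallower barcodes. The 2 that were higher stand against 3.94% and 2.79%. SOAT1 and ABCA1 were chosen after their values were seen. SOAT1, which esterifies cholesterol for storage, held 12 UMIs in KO kept cells, against 41 in WT kept cells, a log2 ratio of -1.39 (-2.45 to -0.43), and 82 UMIs in KO against 217 in WT in the shallower barcodes, a ratio of -1.23 (-1.61 to -0.86). ABCA1, which exports cholesterol from the cell, held 37 UMIs in KO kept cells, against 32 in WT kept cells, a log2 ratio of 0.59 (-0.13 to 1.32), and 313 UMIs in KO against 222 in WT in the shallower barcodes, a ratio of 0.67 (0.42 to 0.92). ABCA1 and MYLIP were thus higher in KO by 1.5-fold in both sets of barcodes, and SOAT1 was lower. Of the 12 measured genes of esterification, efflux and transfer, 9 were lower and 3 higher in kept cells, where 65.2% of all measured genes were lower, and 6 were lower and 6 higher in the shallower barcodes, where 68.8% were lower. Their median log2 ratios were -0.19 and -0.016, against -0.15 and -0.16 for the 26 measured genes of the pathway.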
